A study of Solanum tuberosum with 12 samples.

Results

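Mature microRNAs (miRNAs) were compared between tubers of the potato (Solanum tuberosum) cultivars whose names hold a colour, Black kingkong and Red beauty, and tubers of the cultivars whose names hold none, Longshu No.7 and LK99. All 12 of the 12 samples of the study entered the comparison, 6 on each side, with 3 samples for each of the 4 cultivars, and each cultivar had equal weight within its side. The tubers were sampled at harvest, at an age of 150 days. All 4 cultivars were grown at the same site with irrigation, light and temperature kept alike, and no treatment or transgene is given for any of them. The study asked which miRNAs take part in making anthocyanins, the red to blue pigments of plants, and in regulating them. The labels used here give no skin or flesh colour and no pigment value, so the sides rest on the cultivar names alone. Cultivars differ in much besides their names, and a colour name and any other difference between cultivars cannot be told apart. Whether the samples of a cultivar are separate plants is not stated, so every p-value reflects only how far these samples spread, and that spread may be technical.

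A plant miRNA is cut from a hairpin-shaped precursor, loaded into an Argonaute protein and guided by base pairing to messenger RNAs, which are then cut or translated less. The arms of the hairpin, written 5p and 3p, can each give a mature miRNA, and usually the arm that is loaded is the more abundant. In other plants, miR156 acts on SPL transcription factors, and miR828 and miR858 act on R2R3-MYB transcription factors, a class that includes activators of the anthocyanin genes.

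The deposited table gives counts for 7827 entries with 5730 distinct mature sequences, and each sequence is described once here. A filter on low counts left 1003 distinct sequences, of which 95 had a potato name (stu-miR), 135 a name carried over from other species (ending in x, y or z) and 773 had been predicted by the authors. Predicted miRNAs are called by the end of their identifier, such as m2203-3p. The samples held 5.61 to 7.05 (in 1e6 counts) in Black kingkong and Red beauty and 5.82 to 7.35 in Longshu No.7 and LK99. A single entry, miR166-y, took 86.1% to 92.0% of the counts of a sample. Within a cultivar, Pearson's r of log2 levels across the tested sequences was 0.867 to 0.974, and the lowest values belonged to replicate 3 of Longshu No.7. No miRNA marker of tuber tissue was set, so the tissue label was not checked, and 0 entries had an animal-type name. In whole tissue, fewer cells of a type and less RNA per cell cannot be told apart. Levels are counts per 1e6 counts (CPM) after TMM scaling, given as mean ± SD of the 3 samples of a cultivar.

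The sequences on which the comparison turns are printed first, 5′ to 3′ with T for U as in the deposited table, and the capitals mark the seed, bases 2 to 8, which leads the pairing with a target. The first set holds the potato and other named miRNAs whose levels did not overlap between the sides, with the second arm of miR6026 for comparison.
stu-miR166d-3p: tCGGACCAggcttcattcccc
stu-miR395a: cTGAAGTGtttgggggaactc
stu-miR8044-5p: tTTCAAATatggttggagatg
stu-miR6026-5p: aATACAACtattgccaagacaa
stu-miR6026-3p: tTCTTGGCtagagttgtattgc
miR9473-x: tTGGCTGTaaatctaaactcg
stu-miR8011a-3p: aATAAAAAgaagcctcacacaact

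The second set holds predicted miRNAs with wide separation, with no count on a side, or, for m3686-5p, with an overlap to another of the set, m2203-3p to m0080-3p being higher in Black kingkong and Red beauty and m1541-3p to m3686-5p lower.
m2203-3p: tTTGTCACgacccgagagtacc
m2087-5p: tATTAGAAtctgataataact
m3976-3p: tCACAGGAcatacaacaagagt
m0080-3p: aTATGGTTgattgttgaatcct
m1541-3p: tGTACTCAgattctgcactaga
m0830-5p: tTTCATCGtttagagcgttcct
m2741-5p: gCTTAGATatgacatagggct
m3686-5p: aGGCTTAGatatgacatagggc

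The third set is a pair of predicted miRNAs that differ at a single base of the seed and moved in opposite directions.
m5862-5p: cTCAACCGgcaagtaaacact
m5853-5p: cTCAATCGgcaagtaaacact

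Across the 1003 tested sequences, 102 were higher (10.2%) and 162 were lower (16.2%) in Black kingkong and Red beauty than in Longshu No.7 and LK99 (edgeR quasi-likelihood test, Benjamini-Hochberg adjusted p under 0.05). The median log2 fold change of all tested sequences was -0.09. Scaling by library size alone moved that median to -0.32, a shift of -0.23, and the split to 63 higher and 237 lower. Of the 264 sequences called, 20 were higher (1.99% of those tested) and 24 lower (2.39%) with no overlap between the 6 samples of one side and the 6 of the other. These 44 sequences are called separated here. They hold 43 count profiles, since m1674-5p and m2494-3p, nested in each other, have identical counts. Separation was used to choose them, so it is given as a description and adds nothing to the test.

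The separated sequences were 5 of the potato miRNAs, 1 miRNA named from other species and 38 predicted miRNAs, of which 17 were higher and 21 lower. Most were rare. A mean above 10 CPM was found for 7 of the 44, against 192 of all 1003 tested, and together the 44 held 0.114% to 0.194% of the counts of a sample. The gap between the nearest samples of the 2 sides, on the log2 scale, had a median of 0.26 in the 20 higher sequences and 0.45 in the 24 lower. It was above 1 for 5 higher and 8 lower sequences, and under 0.1 for 7 higher and 4 lower.

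The call depends on which unit is taken as the replicate. Each side holds 2 cultivars, and with cultivars as the units an exact two-sided test cannot give a p below 0.333. With the counts summed per cultivar, edgeR called 0 of 1003 sequences, and 43 (4.29%) had an unadjusted p under 0.05. With the 12 samples as the units but 1 coefficient per side in place of 1 per cultivar, 93 sequences were called, 41 higher and 52 lower, among them 36 of the 44. Under library size alone, 41 of the 44 were still called, but only 31 were still separated, and the separated sequences then split into 7 higher and 36 lower. Without replicate 3 of Longshu No.7, the sample that stood apart, 328 sequences were called and 59 separated, and all 44 were still called.

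**Figure D1:**
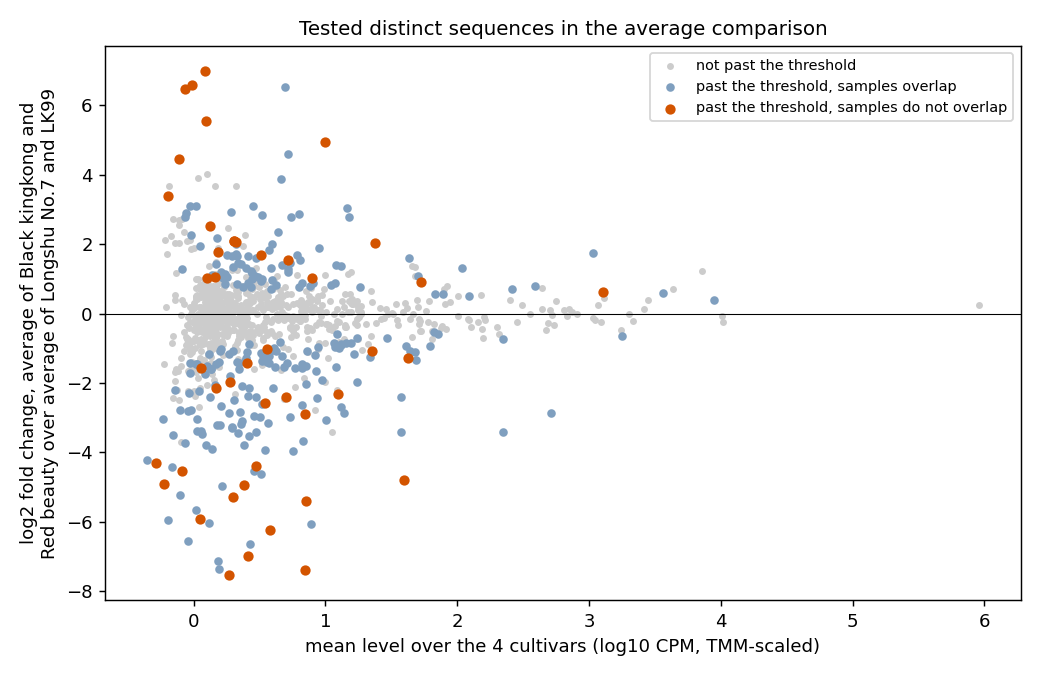
Log2 fold change of Black kingkong and Red beauty, averaged, over Longshu No.7 and LK99, averaged (vertical axis) against the log10 of the mean level in CPM (horizontal axis) for the 1003 tested sequences, where fitted values of sequences with no count on a side depend on the prior count. Separated sequences, 20 above 0 and 24 below, are mostly rare, as are the tested sequences. A mean above 10 CPM is found for 7 of the 44 and for 192 of all 1003.

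Each side can be split into crosses of a single cultivar against a single cultivar. The 4 crosses share samples, so their values are not independent. Of the 264 sequences called in the average, 164 had the same sign in all 4 crosses, 81 in 3 and 19 in 2. Only 7 sequences were higher (0.698% of those tested) and 21 lower (2.09%) by the test in every cross, and 24 of these 28 were separated, 7 higher and 17 lower. The levels within a side also differed. Among the 20 higher separated sequences, Black kingkong had the highest mean in 12 and Red beauty in 8. Among the 24 lower ones, Longshu No.7 had the highest mean in 13 and LK99 in 11.

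The most abundant separated miRNA was stu-miR166d-3p, of the family that acts on HD-ZIP III transcription factors of meristems and organ polarity. It stood at 1513, 1564 and 1786 CPM in Black kingkong and 1640, 1311 and 1539 in Red beauty, against 1061, 943 and 1136 in Longshu No.7 and 1097, 991 and 868 in LK99. Every sample of the colour-named cultivars was above every sample of the others, by a small margin. The side means differed 1.53-fold (log2 fold change 0.62, SE 0.13, edgeR adjusted p = 0.0038). It passed in 3 of the 4 crosses, and the log2 fold change of Red beauty over Longshu No.7 was 0.52 without passing. With no filter on low counts the call was lost (0.56, adjusted p = 0.072).

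Other members of the family were not separated. In substitutions the base of the first sequence of a pair is written first, and positions are counted from 1 at the 5′ end. The dominant miR166-y, whose sequence starts 2 bases earlier on the 5′ side, gave 0.24 on the log2 scale (SE 0.11, adjusted p = 0.12). Between stu-miR166d-3p and its variant stu-miR166b the substitution is C20T. The variant averaged 617 ± 110 CPM in Black kingkong and 645 ± 98.3 in Red beauty, against 580 ± 90.3 in Longshu No.7 and 419 ± 27.7 in LK99 (0.36, SE 0.15, adjusted p = 0.10). The 3p sequence is listed under 3 entries, stu-miR166a-3p, stu-miR166c-3p and stu-miR166d-3p, so its reads cannot be assigned to 1 of these precursors, and their 5p arms differed. The more abundant stu-miR166a-5p was higher: 24.6 ± 4.62 CPM in Black kingkong and 21.4 ± 5.39 in Red beauty, against 11.5 ± 1.58 in Longshu No.7 and 15.6 ± 4.45 in LK99 (0.78, SE 0.22, adjusted p = 0.016), a call that was lost under library size alone and also without the filter on low counts (adjusted p of 0.060 and 0.091 in that order). That call was also lost without Longshu No.7 (0.51, adjusted p = 0.16) and without Black kingkong (0.68, adjusted p = 0.095). Over LK99 neither Black kingkong (0.66) nor Red beauty (0.46) passed. The rarer stu-miR166d-5p was lower: 3.96 ± 0.268 CPM in Black kingkong and 1.43 ± 0.269 in Red beauty, against 8.25 ± 0.686 in Longshu No.7 and 5.80 ± 2.10 in LK99 (-1.53, SE 0.25, adjusted p = 0.00048). The rare stu-miR166c-5p did not pass (-0.32, SE 0.40, adjusted p = 0.59).

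The rare stu-miR395a is of the family that acts on ATP sulfurylase and a sulfate transporter in Arabidopsis, where it responds to sulfate supply. Its sequence is listed under 10 entries. It stood at 1.89, 3.09 and 2.06 CPM in Black kingkong and 1.85, 2.67 and 2.03 in Red beauty, against 0.379, 0 and 0.217 in Longshu No.7 and 1.21, 0.728 and 0 in LK99. The sides differed 5.36-fold on 83 and 19 counts (log2 fold change 2.52, SE 0.55, adjusted p = 0.0037). It passed against Longshu No.7 (3.34 for Black kingkong and 3.23 for Red beauty) and did not pass against LK99 (1.82 and 1.71 in the same order).

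The potato miRNA stu-miR8044-5p likewise passed against Longshu No.7 and not against LK99. It stood at 41.5, 42.2 and 34.8 CPM in Black kingkong and 33.7, 33.4 and 31.4 in Red beauty, against 4.42, 6.90 and 0 in Longshu No.7 and 14.1, 14.7 and 30.6 in LK99. Replicate 3 of LK99 came within a log2 gap of 0.03 of the lowest Red beauty sample. The log2 fold change was 2.04 (SE 0.48, adjusted p = 0.0062, 3.06-fold), and the separate values were 3.35 and 3.08 over Longshu No.7, which passed, and 0.99 and 0.73 over LK99, which did not. The crosses were not tested against each other.

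Sequences related to stu-miR8044-5p lay the same way in the average. The overlapping m5616-5p, shifted by 1 base, gave 1.67 on the log2 scale (SE 0.37, adjusted p = 0.0046). Over LK99 it gave 1.33 for Black kingkong, which passed, and 0.10 for Red beauty, which did not. The related miR8044-x (2.37, SE 0.37, adjusted p = 0.00039) and miR8044-y (2.02, SE 0.39, adjusted p = 0.0017) were also higher. For miR8044-x the means were 2.81 ± 1.79 CPM in Black kingkong and 12.4 ± 2.55 in Red beauty, against 0.883 ± 0.374 in Longshu No.7 and 1.42 ± 0.750 in LK99. Black kingkong over LK99 did not pass (0.99). For miR8044-y they were 5.68 ± 2.07, 5.08 ± 1.21, 0.310 ± 0.398 and 4.58 ± 0.773 in the same order, and neither value over LK99 passed (0.30 and 0.14). The second arm stu-miR8044-3p averaged 72.9 ± 10.8 CPM in Black kingkong and 52.7 ± 9.74 in Red beauty, against 13.5 ± 11.5 in Longshu No.7 and 42.1 ± 12.0 in LK99, and did not pass (1.37, SE 0.51, adjusted p = 0.062). Replicate 3 of Longshu No.7 held 0.217 CPM of that arm and no count of stu-miR8044-5p. None of these 4 sequences was separated.

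Among the lower miRNAs was stu-miR6026-5p, the rare arm of its precursor. It had 0 counts in the 3 samples of Black kingkong and 1 count, in replicate 3, in Red beauty, against 64 counts in Longshu No.7 and 161 in LK99. The levels were 3.29, 3.79 and 3.47 CPM in Longshu No.7 and 10.0, 2.62 and 7.81 in LK99. By counts pooled over each side, the level in Longshu No.7 and LK99 was 201-fold that of Black kingkong and Red beauty. The 95% counting interval was 35.6 to 7956 (edgeR adjusted p = 2.3e-05), and the test passed in all 4 crosses. Such intervals and limits take in counting error alone, and PCR copies are not independent molecules. The other arm, stu-miR6026-3p, which in tomato belongs to the group of miRNAs that act on NLR immune receptor genes, was far more abundant. It averaged 154 ± 4.07 CPM in Black kingkong and 112 ± 6.91 in Red beauty, against 143 ± 19.8 in Longshu No.7 and 165 ± 9.39 in LK99 (-0.23, SE 0.15, adjusted p = 0.26).

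The miRNA miR9473-x was lower in every cross. It stood at 2.97, 2.79 and 3.94 CPM in Black kingkong and 5.03, 5.72 and 3.87 in Red beauty, against 15.2, 20.2 and 7.80 in Longshu No.7 and 30.3, 39.0 and 13.8 in LK99. The side means differed 5.19-fold (log2 fold change -2.33, SE 0.31, adjusted p = 0.0001), with replicate 3 the lowest of its cultivar in Longshu No.7 and LK99. The rare stu-miR8011a-3p had 1 count in Black kingkong and 0 in Red beauty, against 14 in Longshu No.7 and 39 in LK99, a ratio of 47.2 towards the cultivars without a colour name (95% counting interval 8.12 to 1901, adjusted p = 0.0034). Its separation rested on single reads: 12 of the 14 counts of Longshu No.7 came from replicate 1, and the nearest samples, at 0.171 and 0.172 CPM, held 1 count each.

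**Figure D2:**
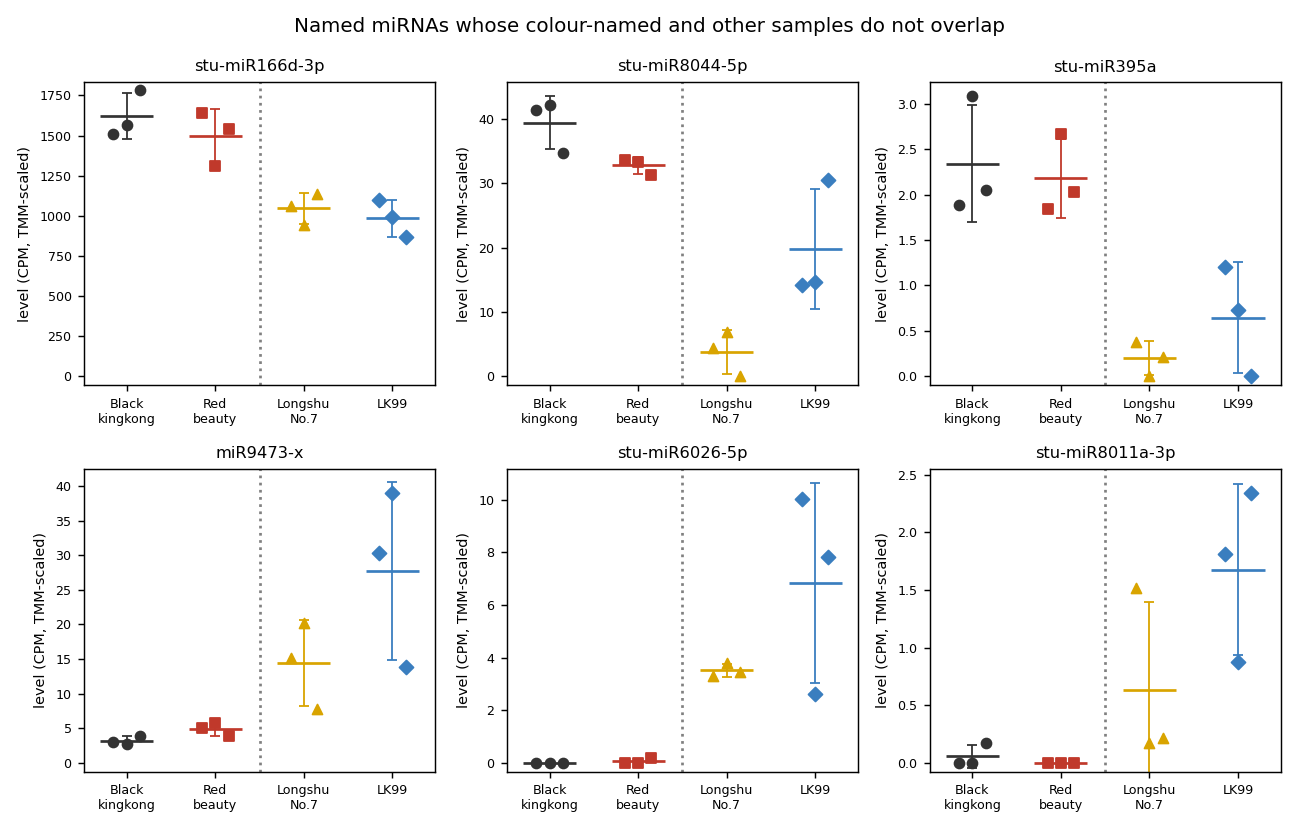
Level in CPM (vertical axes, linear) in each of the 12 samples for the 6 separated miRNAs with a potato name or a name from other species, with Black kingkong and Red beauty left of Longshu No.7 and LK99, points for samples, horizontal bars for the cultivar mean and vertical lines for ± 1 SD. Every point of the left side lies above the right side for stu-miR166d-3p, stu-miR395a and stu-miR8044-5p and below it for the others, with LK99 replicate 3 at 30.6 CPM the nearest for stu-miR8044-5p.

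Among the predicted miRNAs, for which the table gives no target, m2203-3p had the widest gap of any separated sequence, 2.66 on the log2 scale. It stood at 9.19, 11.5 and 8.05 CPM in Black kingkong and 29.7, 26.9 and 30.2 in Red beauty, against 1.01, 0.345 and 0 in Longshu No.7 and 0.242, 0.583 and 0.781 in LK99. Red beauty was above Black kingkong in every sample, and all samples of the other cultivars were near or below 1 CPM. The side means differed 39.0-fold (log2 fold change 4.94, SE 0.40, adjusted p = 1.4e-06), and the value was 5.59 without replicate 1 of Longshu No.7.

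Another 3 predicted sequences were counted in all 6 samples of the colour-named cultivars and in none of Longshu No.7 and LK99. A count of 0 over those 6 samples allows a level of up to 0.0729 CPM, taken as 3 counts over the side, and sequences at 0 on a side passed the filter only through the other side. The sequence m2087-5p stood at 2.57, 3.09 and 2.57 CPM in Black kingkong and 3.02, 2.67 and 0.738 in Red beauty, 91 counts in all, and was at least 33.5-fold higher (adjusted p = 0.00013). The sequence m3976-3p stood at 2.57, 2.64 and 2.40 CPM in Black kingkong and 1.17, 1.34 and 1.48 in Red beauty, 73 counts, and was at least 26.5-fold higher (adjusted p = 6.3e-05). For m0080-3p the levels were 1.49, 1.76 and 2.23 CPM in Black kingkong and 2.18, 1.34 and 1.29 in Red beauty, 63 counts, at least 23.5-fold higher (adjusted p = 0.0001). All 3 passed in all 4 crosses.

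A few higher sequences had 2 counts over the 6 samples of the other side. For m1929-5p there were 87 counts in Black kingkong and Red beauty and 2 in Longshu No.7 and LK99, both in Longshu No.7 replicate 2, a ratio of 48.8 (95% counting interval 13.1 to 409). For m4046-5p the counts were 54 and 2, a ratio of 30.3 (7.99 to 257). The ratio of m0967-5p was 23.6 (6.13 to 201), but 38 of its 42 counts came from Red beauty and 4 from Black kingkong, and without Red beauty the call was lost (adjusted p = 0.23). Of the more abundant predicted sequences, m2673-3p averaged 9.56 ± 1.01 CPM in Black kingkong and 11.4 ± 1.70 in Red beauty, against 4.00 ± 1.38 in Longshu No.7 and 6.55 ± 0.446 in LK99 (log2 fold change 1.02, SE 0.22, adjusted p = 0.0033).

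The lower side held a mirror case, m1541-3p, with no count in the 6 samples of Black kingkong and Red beauty, which allows up to 0.0818 CPM. It stood at 1.52, 3.45 and 3.25 CPM in Longshu No.7 and 3.26, 6.99 and 3.91 in LK99, 152 counts, and was at least 45.6-fold lower in the colour-named cultivars (adjusted p = 6.4e-05). The sequence m0830-5p had 5 counts in Black kingkong and 0 in Red beauty, against 112 in Longshu No.7 and 466 in LK99. Its side means differed 120-fold (adjusted p = 2.6e-05), and replicate 3 of Longshu No.7, at 13.9 CPM, was above the other samples of that cultivar, at 2.65 and 4.66.

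The most abundant of the strongly lower sequences was m2741-5p. It stood at 1.49, 0.294 and 0.171 CPM in Black kingkong and 7.72, 9.16 and 12.5 in Red beauty, against 94.8, 102 and 70.2 in Longshu No.7 and 52.4, 64.1 and 61.2 in LK99. Black kingkong lay below Red beauty in every sample, and both lay far below the rest. The log2 fold change was -4.79 (SE 0.35, adjusted p = 1.1e-06), and -5.52 without replicate 1 of Black kingkong. The sequence m3686-5p overlaps it with ends shifted by up to 2 bases and was also separated, with 6 counts in Black kingkong and Red beauty against 190 in Longshu No.7 and LK99, a 25.3-fold difference of the side means. Its fitted log2 fold change was -4.93 (SE 0.63, adjusted p = 7.3e-05), -5.86 without replicate 3 of Black kingkong and -5.71 without replicate 3 of Red beauty. Overlapping sequences are not separate evidence.

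Further lower sequences had 1 to 3 counts on the side of the colour-named cultivars. The counts were 1 against 92 for m2731-5p, a ratio of 82.0 towards Longshu No.7 and LK99 (95% counting interval 14.4 to 3274). For m2733-5p they were 3 against 156, a ratio of 46.3 (15.6 to 227). For m0633-5p they were 3 against 327, a ratio of 97.2 (33.0 to 474), although replicate 3 of Longshu No.7 stood at 0.217 CPM where the other samples of that cultivar stood at 15.2 and 11.0. All 3 passed in all 4 crosses.

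Lower sequences of higher abundance differed by less. For m1157-5p the means were 29.2 ± 1.91 CPM in Black kingkong and 19.6 ± 3.77 in Red beauty, against 42.2 ± 6.69 in Longshu No.7 and 79.0 ± 21.6 in LK99 (log2 fold change -1.27, SE 0.20, adjusted p = 0.00038). For m1478-3p they were 14.8 ± 0.893 in Black kingkong and 13.9 ± 2.32 in Red beauty, against 33.1 ± 2.90 in Longshu No.7 and 28.1 ± 10.2 in LK99 (-1.09, SE 0.21, adjusted p = 0.0020), with the test passed in all 4 crosses.

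**Figure D3:**
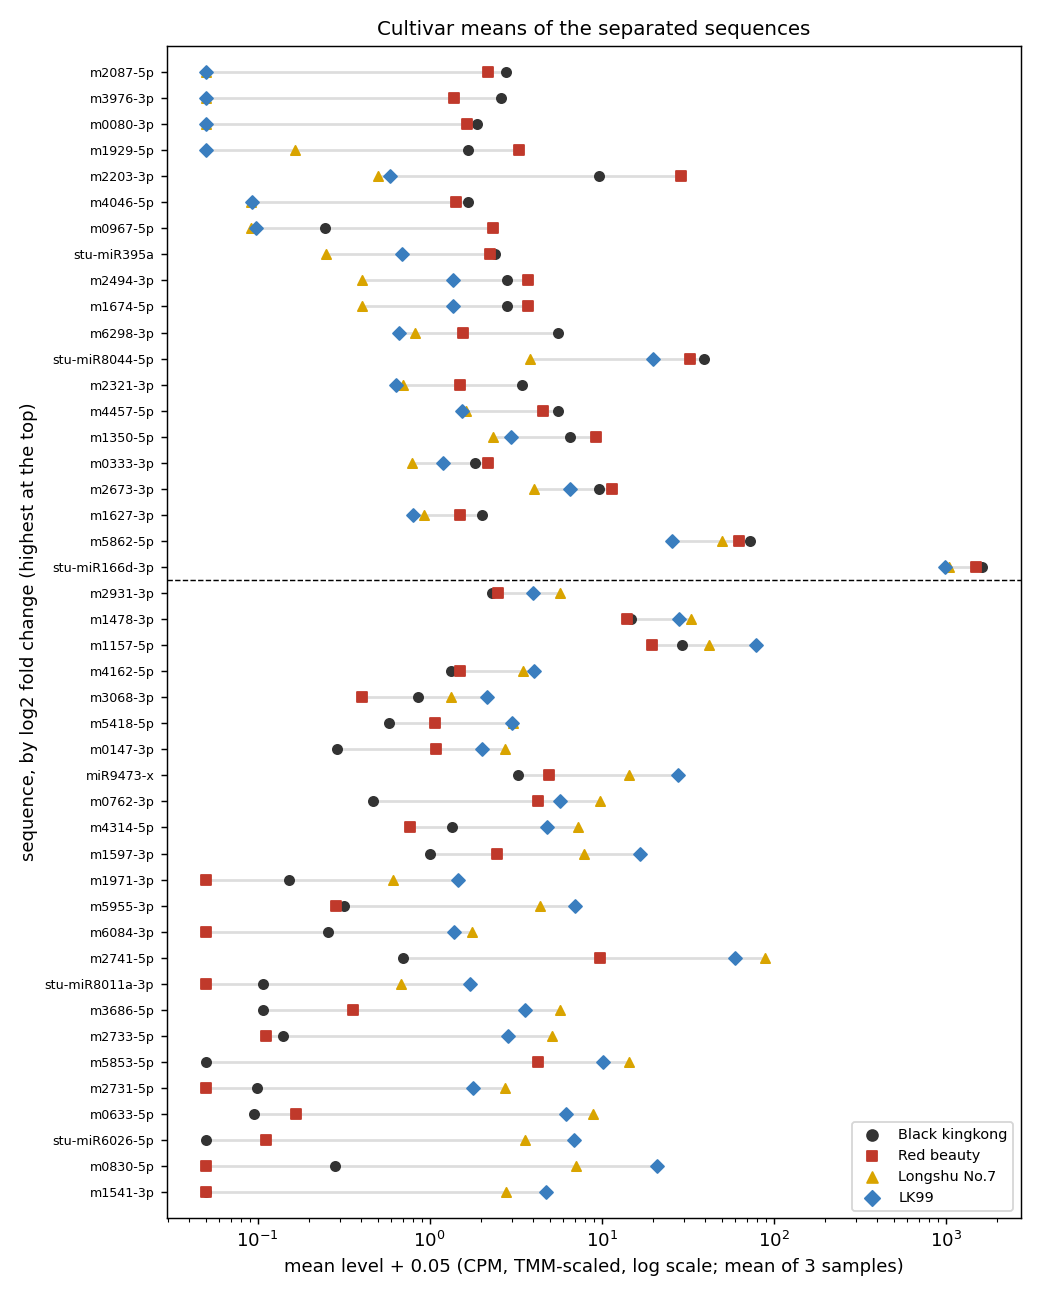
Cultivar means of the 44 separated sequences in CPM plus 0.05 (horizontal log axis, 1 row per sequence, 1 marker per cultivar, markers at 0.05 standing for no count and covering each other where several cultivars have none). The widest separation of the higher sequences is m2203-3p, at 9.57 and 28.9 CPM in Black kingkong and Red beauty against 0.452 and 0.535 in Longshu No.7 and LK99.

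Some separated calls were weak. The calls of m1627-3p, m1350-5p and m2931-3p, singled out after their values were seen, were each lost on leaving out 1 of several samples. The adjusted p then reached 0.074 for m1627-3p without LK99 replicate 3, 0.074 for m1350-5p without Red beauty replicate 1 and 0.054 for m2931-3p without Black kingkong replicate 2. Without any 1 sample, 42 to 44 of the 44 were still called. Without a whole cultivar the number was 37 for Black kingkong, 40 for Red beauty, 42 for Longshu No.7 and 41 for LK99. The calls of m0762-3p, m0147-3p, m2321-3p and m6298-3p were among those lost without Black kingkong (adjusted p = 0.074 to 0.11). At the edge of the separation, the nearest samples of m0967-5p were a Black kingkong sample at 0.147 CPM and an LK99 sample at 0.146. Just outside it, m0309-5p and m2717-3p were called as lower with no count in Black kingkong and Red beauty, but samples of Longshu No.7 were also at 0. The single sequence that was separated and not called was m4134-3p, at 5.98 ± 0.884 CPM in Black kingkong and 6.03 ± 0.301 in Red beauty, against 8.32 ± 1.46 in Longshu No.7 and 8.76 ± 2.60 in LK99 (-0.50, SE 0.22, adjusted p = 0.098).

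The pair m5862-5p and m5853-5p is the clearest case of related sequences that moved in opposite directions. They are 21 bases long and differ inside the seed by C6T, from m5862-5p to m5853-5p. The C form, m5862-5p, stood at 60.0, 72.3 and 87.5 CPM in Black kingkong and 56.5, 53.8 and 78.4 in Red beauty, against 52.1, 53.6 and 44.0 in Longshu No.7 and 26.2, 27.2 and 23.8 in LK99. Its lowest Red beauty sample and its highest Longshu No.7 sample lay at 53.8 and 53.6 CPM. The log2 fold change was 0.92 (SE 0.18, adjusted p = 0.0020), and without LK99 the call was lost (0.47, adjusted p = 0.16).

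The T form, m5853-5p, had no count in Black kingkong and stood at 2.85, 4.01 and 5.72 CPM in Red beauty, against 15.8, 19.0 and 8.24 in Longshu No.7 and 7.61, 10.9 and 12.0 in LK99. Its level was 5.85-fold higher in the mean of Longshu No.7 and LK99 than in that of Black kingkong and Red beauty. The fitted log2 fold change was larger, at -5.41 (SE 0.47, adjusted p = 7.6e-06), with no count in Black kingkong. That value was -1.53 (adjusted p = 0.013) without Black kingkong and -9.36 without Red beauty. As a share of the counts of both forms, m5853-5p made up 0% in Black kingkong, where 0 of 1447 counts allow up to 0.207%, and 6.18% ± 1.19 in Red beauty, against 21.7% ± 5.35 in Longshu No.7 and 28.2% ± 5.49 in LK99 (mean ± SD of 3 samples). The highest share in Red beauty was 6.93% and the lowest in Longshu No.7 was 15.8%. The sum of both forms was 73.3 ± 13.8 CPM in Black kingkong and 67.1 ± 14.7 in Red beauty, against 64.2 ± 10.7 in Longshu No.7 and 35.9 ± 2.17 in LK99. How the forms arise was not tested.

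**Figure D4:**
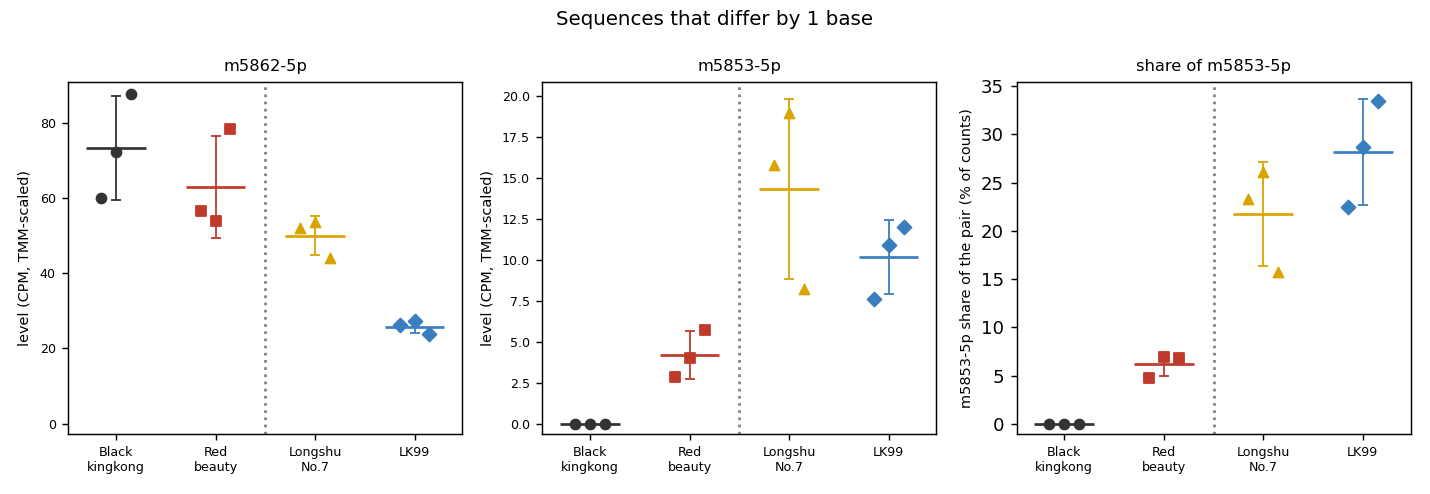
Level in CPM of the C form m5862-5p and of the T form m5853-5p, and the T form as percent of the counts of both forms, in each of the 12 samples (points), with horizontal bars for the cultivar mean and vertical lines for ± 1 SD. The share of the T form is 0 in Black kingkong and at most 6.93% in Red beauty, against 15.8% or more in Longshu No.7 and LK99.

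Such related sequences were tested as separate entries in 43 pairs that differ by 1 base or by shifted ends. In 9 pairs both members were called, 6 in the same direction and 3 in opposite directions. Besides m5862-5p and m5853-5p, the opposite pairs joined stu-miR156e with miR156-x and with stu-miR156f-5p. For m1478-3p, the variant m2936-3p (A5G) did not pass (0.58, SE 0.91, adjusted p = 0.68) and was highest in Red beauty, at 10.7 ± 2.30 CPM. The pair m5954-3p and m5955-3p (T6C) was lower in both members. The T form m5954-3p had no count in Black kingkong and 1.50 ± 0.162 CPM in Red beauty, against 5.18 ± 4.17 in Longshu No.7 and 24.4 ± 17.7 in LK99. The C form m5955-3p, which was separated, had 0.269 ± 0.258 CPM in Black kingkong and 0.237 ± 0.0854 in Red beauty, against 4.31 ± 0.317 in Longshu No.7 and 7.00 ± 6.58 in LK99.

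The separated sequences were of the usual miRNA length. Of the 44, 17 had 21 nt, 18 had 22 nt, 7 had 23 nt, and 20 and 24 nt had 1 each. A 5′ T, the base favoured by the Argonaute protein that loads most plant miRNAs, was found in 10 of the 20 higher and 7 of the 24 lower sequences (29.2%), against 51.0% of all tested. A 5′ A was found in 8 of the 24 lower (33.3%), against 18.1% of all tested. The median GC content was 41.9% in the higher and 40.9% in the lower sequences, against 40.9% in all tested. A shared seed was found only for the nested m1674-5p and m2494-3p, which were higher in Black kingkong and Red beauty (log2 fold change 2.08, SE 0.44, adjusted p = 0.0031). Leaving out Longshu No.7 replicate 1 gave 3.01. The other 42 separated sequences had a seed each of their own.

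Several called sequences stood apart in a single cultivar, and those named here were not separated. In Red beauty this was stu-miR156e, an SPL regulator, at 132 ± 15 CPM beside 13.4 ± 7.46 in Black kingkong, against 16.8 ± 2.83 in Longshu No.7 and 11.4 ± 4.40 in LK99 (log2 fold change 1.60, SE 0.29, adjusted p = 0.0010). Leaving out Red beauty gave -0.056. In Black kingkong it was m3099-5p, at 285 ± 17.6 CPM beside 49.3 ± 15.1 in Red beauty, against 61.5 ± 20.8 in Longshu No.7 and 37.6 ± 18.5 in LK99 (1.30, SE 0.27, adjusted p = 0.0030). Black kingkong was also low in m2963-3p, at 3.47 ± 1.56 CPM beside 239 ± 20.7 in Red beauty, against 434 ± 183 in Longshu No.7 and 215 ± 28.9 in LK99 (-3.40, SE 0.28, adjusted p = 1.4e-06).

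The potato miRNA stu-miR8006-5p crossed the sides. It averaged 199 ± 15.5 CPM in Black kingkong and 7.26 ± 1.66 in Red beauty, against 6.32 ± 0.662 in Longshu No.7 and 103 ± 3.31 in LK99. Its average contrast passed (0.57, SE 0.17, adjusted p = 0.023), but the value was -1.81 without Black kingkong, and the call was lost without Red beauty replicate 1 or 3 or LK99 replicate 3 (adjusted p = 0.050 to 0.061). The abundant m4033-3p fell in the average (-2.87, SE 0.90, adjusted p = 0.030) with 776 ± 193 CPM in Black kingkong and 6.47 ± 8.60 in Red beauty, against 268 ± 231 in Longshu No.7 and 1002 ± 213 in LK99. Without Red beauty its value was 0.58, and without Red beauty replicate 3 it was -3.85. Its call was lost without any 1 of 8 other samples (adjusted p = 0.050 to 0.077).

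The 3 most abundant called miRNAs that overlapped between the sides had LK99 at the low or the high end. For stu-miR162a-3p, which acts on the mRNA of the miRNA-processing enzyme DCL1, the means were 11849 ± 940 CPM in Black kingkong and 8166 ± 1120 in Red beauty, against 10209 ± 1732 in Longshu No.7 and 5418 ± 733 in LK99 (log2 fold change 0.40, SE 0.13, adjusted p = 0.038), and leaving out LK99 gave -0.030. For stu-miR319a-3p, which acts on TCP transcription factors, they were 5566 ± 601 in Black kingkong and 2790 ± 605 in Red beauty, against 4921 ± 887 in Longshu No.7 and 1393 ± 493 in LK99 (0.59, SE 0.19, adjusted p = 0.030), and leaving out LK99 gave -0.30. For stu-miR156d-5p they were 1191 ± 55.9 in Black kingkong and 1507 ± 317 in Red beauty, against 1455 ± 223 in Longshu No.7 and 3020 ± 1265 in LK99 (-0.65, SE 0.20, adjusted p = 0.025), and leaving out LK99 gave -0.094. All 3 calls were lost on leaving out 1 of several samples, with an adjusted p of up to 0.091 for stu-miR162a-3p without Longshu No.7 replicate 1, 0.077 for stu-miR319a-3p without Red beauty replicate 3 and 0.061 for stu-miR156d-5p without Red beauty replicate 2. With library size alone the calls of stu-miR162a-3p, stu-miR319a-3p and stu-miR8006-5p were lost. The most abundant potato miRNAs that did not pass were stu-miR396-5p (-0.23, SE 0.20), stu-miR1919-3p (0.13, SE 0.21) and stu-miR482c (0.00, SE 0.17).

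Of the miRNA families linked to anthocyanins in other plants (miR156, miR157, miR828 and miR858), 12 sequences were tested, both arms included. Of these, 2 were higher, 3 were lower and none was separated, where 10.2% of all tested sequences were higher and 16.2% lower. The median log2 fold change was 0.04, beside -0.09 over all tested. The lower ones were SPL regulators: stu-miR156d-5p, miR156-x (-1.12, SE 0.29, adjusted p = 0.011) and stu-miR156f-5p (-1.54, SE 0.33, adjusted p = 0.0031). The calls of these 3 did not hold without every cultivar. Without LK99 the value was -0.094 for stu-miR156d-5p and -0.49 for miR156-x, and without Black kingkong -0.75 for stu-miR156f-5p. For miR156-x the means were 28.3 ± 10.3 CPM in Black kingkong and 29.0 ± 1.13 in Red beauty, against 40.8 ± 10.1 in Longshu No.7 and 94.3 ± 60.8 in LK99. Those of stu-miR156f-5p were 3.32 ± 1.73, 9.83 ± 3.97, 12.2 ± 2.71 and 22.5 ± 11.8 in the same order. The higher ones were stu-miR156e, carried by Red beauty, and miR828-x. With library size alone, 1 was higher and 4 were lower.

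The miR858 regulators of R2R3-MYB factors were split within each side. The miRNA miR858-x averaged 410 ± 79.1 CPM in Black kingkong and 2.07 ± 2.05 in Red beauty, against 2.24 ± 2.00 in Longshu No.7 and 189 ± 63.2 in LK99, so each side held a high and a low cultivar (0.53, SE 0.43, adjusted p = 0.37). For miR858-y the log2 fold change was 0.35 (SE 0.44, adjusted p = 0.59), and miR858-z, with no count in Longshu No.7, had an adjusted p of 0.17. The rare miR828-x stood at 6.62, 8.52 and 7.36 CPM in Black kingkong and 2.52, 1.91 and 1.48 in Red beauty, against 0.506, 0.517 and 1.08 in Longshu No.7 and 8.58, 4.37 and 7.42 in LK99. It passed narrowly (0.83, SE 0.29, adjusted p = 0.048), with LK99 above Red beauty in every sample. The call was lost without any 1 of 9 samples (adjusted p up to 0.12), with library size alone, and with DESeq2 (adjusted p = 0.065), and the value was -0.13 without Black kingkong.

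Other families were read by their counts beside the shares of all tested sequences given above. Lists were drawn by family, so both arms were counted, and not every member need act on the named targets. Of 25 sequences of families with resistance gene targets, 1 was higher and 6 were lower, with a median of -0.19. With library size alone the counts were 1 and 11. The higher one was stu-miR6022, at 259 ± 34.4 CPM in Black kingkong and 391 ± 33.7 in Red beauty, against 169 ± 5.58 in Longshu No.7 and 227 ± 27.7 in LK99 (0.70, SE 0.15, adjusted p = 0.0030). Its call was lost without Red beauty (0.41, adjusted p = 0.13) and without Longshu No.7 (0.45, adjusted p = 0.063). The lower ones included stu-miR6026-5p, stu-miR482a-5p (-1.08, SE 0.20, adjusted p = 0.0015) and stu-miR6024-3p (-0.98, SE 0.33, adjusted p = 0.040). Leaving out any 1 of 8 samples ended the call of stu-miR6024-3p, and its value was -0.58 without LK99 replicate 1, where it stood at 49.1 CPM. Without all of LK99 the value of stu-miR6024-3p was -0.071. The call of stu-miR482a-5p was lost without Black kingkong, where its value was -0.36.

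Of 10 sequences of phosphate, sulfate and nitrogen nutrition, 1 was higher, stu-miR395a, and 2 were lower, with a median of -0.34. The lower stu-miR827-3p, which acts on SPX-domain proteins of phosphate handling, averaged 20.5 ± 3.05 CPM in Black kingkong and 35.0 ± 7.34 in Red beauty, against 86.1 ± 43.3 in Longshu No.7 and 54.1 ± 10.9 in LK99 (-1.35, SE 0.27, adjusted p = 0.0022). Its call was lost without Black kingkong (-0.96, adjusted p = 0.077). The lower miR2111-x was rare, at -2.66 (SE 0.56, adjusted p = 0.0031). Leaving out Red beauty replicate 3 gave -3.30. Of 20 sequences of meristem, leaf polarity and phase change, 2 were higher and 3 lower, with a median of -0.17, and 1 and 5 with library size alone. Among the lower ones was stu-miR172b-5p of the family that acts on AP2-type transcription factors (-0.73, SE 0.22, adjusted p = 0.023). That call was lost without any 1 of 5 samples (adjusted p up to 0.064). It was also lost without Red beauty (-0.18, adjusted p = 0.63) and without Longshu No.7 (-0.59, adjusted p = 0.092).

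Among the 7 tested regulators of GAMYB and TCP factors, 3 were higher and 0 lower by edgeR and by DESeq2 (0 lower also at an unadjusted p under 0.05), all 3 of miR319, with a median of 0.09. With library size alone 2 were higher and 2 lower. Among them stu-miR319-3p averaged 104 ± 11.7 CPM in Black kingkong and 38.0 ± 5.36 in Red beauty, against 26.3 ± 11.3 in Longshu No.7 and 33.9 ± 3.19 in LK99 (1.07, SE 0.21, adjusted p = 0.0021). Without Black kingkong all 3 calls were lost, with values of 0.35 for stu-miR319-3p, 0.091 for stu-miR319a-3p and 0.30 for miR319-y. The sequence of miR319-y is that of stu-miR319a-3p with 1 more base at the 3′ end, so these are not separate evidence. Of 8 sequences of families that target the small RNA pathway, 2 were higher and 0 lower by edgeR and by DESeq2, both of miR162. Of these 8, 0 were lower at an unadjusted p under 0.05, and library size alone gave 0 higher and 0 lower. Of 8 auxin and 5 copper-responsive sequences 0 were called by edgeR or DESeq2, with medians of 0.28 and 0.42, and an unadjusted p under 0.05 was found for 0 auxin sequences and 1 copper-responsive one. In the potato number range miR7979 to miR8051, 6 of 64 were higher and 3 lower, with a median of 0.10, and 4 and 7 with library size alone. Of 774 predicted sequences, 1 of which is also listed under another name, 76 were higher and 140 lower, with a median of -0.15, and 46 and 195 with library size alone, with a median of -0.36.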

How the data were processed

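Small RNA of 18 to 30 nt was gel-selected from total RNA of 12 tuber samples and sequenced, per the labels' protocols. The authors' deposited table holds whole-number counts per mature miRNA and sample without normalization. A further deposited column per sample, headed TPM, was treated as a score and not used, and the deposited length column (unit other) gives nt. Not given in the sources used here were the aligner, the counter, the miRBase release, the build, coordinates, any use of strand, and the treatment of reads that match near-identical entries.

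Counts were tested with edgeR 4.0.16 (limma 3.58.1, R 4.3.3) in 1 quasi-likelihood fit over 12 samples with 1 coefficient per cultivar and TMM factors of 0.785 to 1.38. Entries were kept by filterByExpr (minimum count 10, minimum total 15), which left 1349 entries with 99.8% to 99.9% of the counts of a sample. P-values were adjusted by Benjamini-Hochberg over these entries. The entry with the most counts stands for a sequence listed more than once. By entries, 143 were higher and 243 lower. Side folds are ratios of the mean of the cultivar means, except where the lower side had 1 to 3 counts. There the fold is the ratio of the counts pooled over each side, scaled by the TMM-scaled library sizes. That ratio does not give each cultivar equal weight. For a side at 0 counts a floor of 3 counts over the side was used, and for 1 to 3 counts a 95% counting interval (exact binomial) is given. The fit was tested on simulated data. Alternatives were other scaling, other filters, 1 entry per sequence, a replicate block, 1 coefficient per side, counts summed per cultivar, leaving out each sample or cultivar, and DESeq2 1.42.0.

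Named are, among separated sequences, the 10 largest changes and the 5 most abundant in each direction, the 5 widest gaps, and all with a potato or other-species name. Also named are the anthocyanin list, up to 4 called members of other lists, the 3 most abundant called sequences that overlap, opposite variants and 3 abundant potato miRNAs that did not pass. Of these, the text gives the ones the results turn on. The comparison, lists and rule were chosen with earlier results of these data known.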

Additional observations from a re-analysis of the deposited data

How the results depend on the processing

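The main fit called 264 and separated 44 of 1003 tested sequences. No filter on low counts gave 462 and 81 with 5730 sequences tested, and 214 of the 264 were still called. At least 10 CPM in 3 samples gave 79 and 13, with 243 sequences tested. With 1 coefficient per side 93 were called, and with counts summed per cultivar 0 and 0. Without Black kingkong, Red beauty, Longshu No.7 or LK99 the separated numbered 162, 197, 161 and 118. Leaving out a cultivar removes samples and also a cultivar that can differ from its partner, and these were not told apart. Leaving out each sample in turn gave 204 to 328 called and 44 to 59 separated. Other scaling, 1 entry per sequence and DESeq2 gave 255 to 300 called and 43 to 45 separated.

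Signs on leaving out a cultivar were read for the 80 separated or named sequences and not for every called one. Values of the other sign, all for overlapping miRNAs, were found among these 80, and they are log2 fold changes. Without Black kingkong, miR828-x had -0.13 and stu-miR8006-5p -1.81. Without Red beauty, stu-miR156e had -0.056, miR8006-x 0.016, m4033-3p 0.58 and m6280-3p 0.13. Without Longshu No.7, miR828-x had -0.85 and stu-miR8006-5p -1.47. Without LK99, stu-miR319a-3p had -0.30, miR319-y -0.26, stu-miR162a-3p -0.030 and miR8006-x 0.049. The cause was not tested.

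For deviations from the cultivar mean, same-numbered samples of different cultivars had r of -0.07 to 0.15 over 18 pairs, 2 of them over 0.1. Differently numbered samples had r of -0.12 to 0.08 over 36 pairs, 0 of them over 0.1. The difference between these sets of pairs was not tested. A fit with the replicate block gave 254 called and 44 separated. At this depth, 37 of the 44 separated sequences were under 10 CPM and 7 under 1 CPM. Single reads set the separation of some of them, such as stu-miR8011a-3p and m0967-5p, whose nearest samples held 1 count each. Others were further apart: m3976-3p, under 1 CPM, had 7 to 19 counts per sample in the colour-named cultivars and 0 on the other side.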
